A study of Homo sapiens with 30 samples.

Results

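Interleukin 1 beta (IL1b) was given to the human line Eahy926 for 24 h, and the open chromatin of 3 treated libraries was compared with that of 3 untreated libraries prepared on the same day. These 6 libraries were taken from their titles, out of 30 in the series. The series used ATAC-seq, in which a transposase cuts accessible DNA, on Eahy926 and on TeloHAEC, with 10 groups of 3 libraries. Both lines are labelled parental in genotype. All 6 Eahy926 libraries came from cells in DMEM with fetal bovine serum, a medium without added VEGF, and the treated wells also received recombinant human IL1b at 10 ng/ml. A further 3 groups served as references: Eahy926 with tumour necrosis factor alpha (TNFa) at 10 ng/ml for 24 h, and untreated and IL1b-treated TeloHAEC, all of preparation day 1. The fits also used further day 1 groups, which entered the filter and the spread. They were Eahy926 given VEGF, TeloHAEC given TNFa at 10 ng/ml and TeloHAEC with VEGF withheld, each for 24 h. Untreated day 0 libraries of both lines are set beside some results. Eahy926 is a hybrid of an umbilical vein endothelial cell and a lung carcinoma line, while TeloHAEC is an aortic endothelial line immortalised with telomerase and grown in endothelial medium that contains VEGF. Each is a single line, so the libraries of a group are replicate wells as far as the labels say, and p-values measure only the spread between them.

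IL1b binds the receptor IL1R1, which recruits the co-receptor IL1RAP and the adaptor MYD88. The kinases IRAK4 and IRAK2 and the ligase TRAF6 then carry the signal to the inhibitor of NF-kB, and released NF-kB dimers enter the nucleus. In endothelial cells this pathway is known for inducing adhesion molecules, chemokines and its own feedback inhibitors, and TNFa reaches the same dimers through other receptors.

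The libraries held 6427450 to 9073456 mapped tags and 70426 to 83235 autosomal peaks, called separately in each library. Each list was ordered by the deposited -log10 p and cut to its 49774 strongest peaks, and a region's rank score was log2 of 49775 divided by its peak's place, or 0 with no peak in the list. On this scale, dividing a place by 2 adds 1 to the score. Promoter peaks (within 1 kb of the gene start) were present in 3 of 3 controls for 9 of 19 endothelial marker genes, among them KDR, TIE1, FLI1 and SOX17, and in 3 of 3 IL1b libraries for 7. CDH5 and ENG made the difference, with 2 of 3 IL1b libraries each. The keratin genes KRT7 and KRT8 were the 2 of 11 epithelial markers with such peaks in all 6 libraries, and none of 6 blood cell markers had one in any.

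Across the genome, IL1b in Eahy926 gave 2 calls. Of 56650 regions tested, 2 passed an adjusted p of 0.05 (limma, Benjamini-Hochberg), which is 0.00353%, 1 of them higher and 1 lower, and neither passed when peaks were matched by summit. TNFa in the same line and against the same 3 controls called 151 regions (0.267%), 143 higher and 8 lower. IL1b in TeloHAEC called 196 of 58694 (0.334%), 187 higher and 9 lower. Matched by summit, the 3 counts were 0, 59 and 90. The gap to TeloHAEC was not kept under every setting: IL1b gave 1 call in Eahy926 and 0 in TeloHAEC with normal scores, 1 and 2 with pileup, and 2 and 3 with lists of 30000 peaks, where TNFa gave 5, 78 and 32. The direct comparison of IL1b with TNFa in Eahy926 called 179 regions (0.316%), 15 higher and 164 lower with IL1b. The test of the difference between the IL1b responses of the 2 lines called 199 of 77247 regions (0.258%), 20 with the higher value in Eahy926 and 179 with the higher value in TeloHAEC. These counts moved with the libraries used: leaving out 1 at a time gave 3 to 7 calls for IL1b in Eahy926, 38 to 106 for TNFa and 10 to 222 for IL1b in TeloHAEC.

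The counts of unadjusted p-values stood in the same order. Under 0.05 fell 2377 regions with IL1b in Eahy926 (4.2%), 1126 higher and 1251 lower. The share was 8.77% with TNFa and 9.92% with IL1b in TeloHAEC, and an even spread would put 5% there. In 4951 regions (8.74%) the 3 IL1b scores and the 3 control scores did not overlap.

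**Figure D1:**
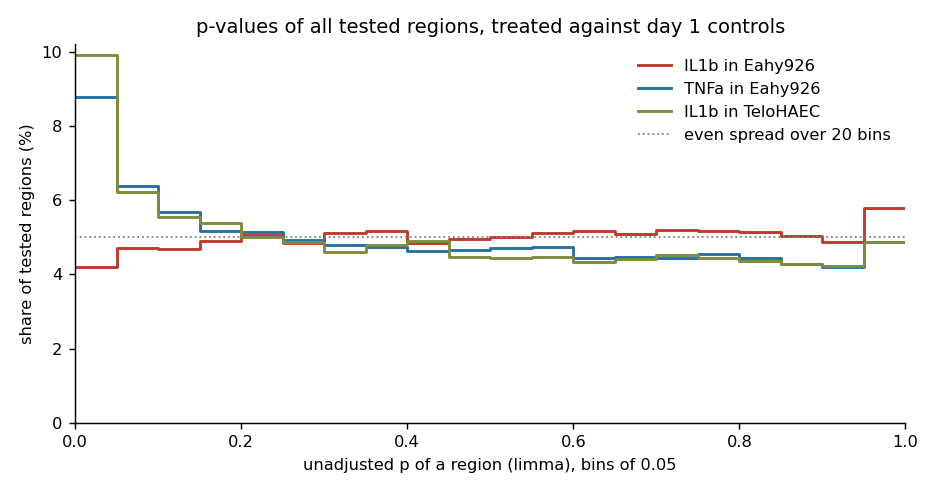
Share of tested regions (%) in each of 20 bins of the unadjusted limma p, for IL1b in Eahy926, TNFa in Eahy926 and IL1b in TeloHAEC, each against 3 day 1 controls; the dotted line is an even spread. The lowest bin holds 4.2%, 8.77% and 9.92% of the regions.

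Pairs of libraries were as alike across the treatment as within it. The Jaccard index of the 45000 strongest peaks (shared over covered bases) was 0.594 to 0.599 among IL1b libraries, 0.588 to 0.600 among controls and 0.587 to 0.606 between them. The mean within groups exceeded the mean between groups by 6e-05 (exact permutation test over the 10 splits, p = 0.5, where the smallest possible is 0.1). For TNFa the excess was 0.0171 and for IL1b in TeloHAEC 0.0295, each at the smallest possible p of 0.1 in that test. Pairs of TNFa libraries (0.543 to 0.565) were no more alike than pairs of TNFa and control libraries (0.540 to 0.573). The TNFa excess thus came from the control pairs. In TeloHAEC, pairs within IL1b (0.595 to 0.600) and within controls (0.607 to 0.611) both exceeded those between (0.569 to 0.580). The TNFa libraries kept 6436809, 5218141 and 4138663 tags, and an effect of depth was not tested.

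How small a change could have gone unseen depended on the strength of the peak. The median standard error of a change was 0.476, and the 95% interval lay within -1 to 1 for 34.0% of regions and within -2 to 2 for 86.3%. Among the 3721 regions whose mean place over the 12 day 1 libraries of Eahy926 was within the first 5000, the interval lay within -2 to 2 for 21.2%, and its median half-width was 1.80. In the weakest class, with mean places beyond 40000, it lay within -1 to 1 for 89.6% of 16836 regions. Scores in that class lie near the floor of 0 given to a region without a peak. Of its regions 0.297% had peaks in 3 of 3 libraries of both groups. A narrow interval there is thus no bound on a change in openness. None of the intervals above is adjusted for the number of regions, and a call needed more. A change of -4.79 at chr14:21458340-21458840 was not called (adjusted p = 0.197), and the 2 called changes were both beyond 5 in size.

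Loss or gain of strong peaks was also rare. A strong peak (among the 45000 strongest) was in 3 of 3 IL1b libraries and 0 of 3 controls at 263 of 66283 regions with any such peak (0.397%), and the reverse held at 314 (0.474%). The corresponding counts were 708 (1.03%) and 620 (0.903%) of 68624 regions for TNFa. For IL1b in TeloHAEC they were 1181 (1.72%) and 723 (1.06%) of 68482. In Eahy926 a weaker peak, still within the list, was in at least 1 control at 114 of the 263. The same held in at least 1 IL1b library at 135 of the 314. Gain and loss here thus refer to the cut at 45000 and not always to a whole peak. Of the 263, 174 had a strong peak in at least 1 untreated Eahy926 library of day 0, 84 of them in 3 of 3. None of the 263 had a mean place within the first 10000, the nearest to the top being at 17062. Of the 263, 6 lay within 50 kb of a listed gene (2.28%, against 1.49% of the 66283), namely BCL3, CDH5, FOS, IKBKB, IL1B and STAT2. Of the 314 lost regions, 209 had a strong peak in a day 0 control, 87 of them in 3 of 3. Within 50 kb of a listed gene were 4 of the 314 (ACTB, CLDN4, PDGFRB and TNFAIP2), beside the same 1.49% of the 66283.

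The region called higher was chr16:30537942-30538442 (hg19), with no listed gene within 50 kb. Its places were 29884, 38909 and 24675 in the controls and 780, 621 and 669 with IL1b, a change of 5.48 ± 0.73 (SE, adjusted p = 0.00153). The groups were far apart, but the untreated libraries of day 0 stood at 642, 981 and 1218, as near to the top as the IL1b libraries. The deposited tag pileup at the summit inside the region was 19, 14 and 19 in the controls and 16, 19 and 21 with IL1b, and these ranges overlap. A taller summit, of 33 to 50 tags in controls and 42 to 44 with IL1b, lay 500 to 634 bp beyond the centre in all 6 libraries. In the 3 controls the 2 summits were in separate intervals, the first ending 209 to 276 bp past the centre, and in the 3 IL1b libraries 1 interval ran through both. With summits matched in place of intervals the change was 0.24 ± 0.45 (adjusted p = 1.0).

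The region called lower was chr17:15902293-15902793 (hg19), again without a listed gene within 50 kb. Its places were 1098, 910 and 1046 in the controls, and with IL1b it had none, 31895 and none, a change of -5.40 ± 0.76 (adjusted p = 0.00187). In none of the 3 day 0 controls did a peak cover enough of the region to count, although 2 of them had a summit 247 and 249 bp past its centre. A summit of 37 to 42 tags in controls and 33 to 46 tags with IL1b lay 446 to 516 bp beyond the centre. The control intervals that held it began 62, 25 and 37 bp before the centre, and the IL1b intervals began 17, 161 and 40 bp after it. The summit-matched change was -0.60 ± 0.39 (adjusted p = 1.0).

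**Figure D2:**
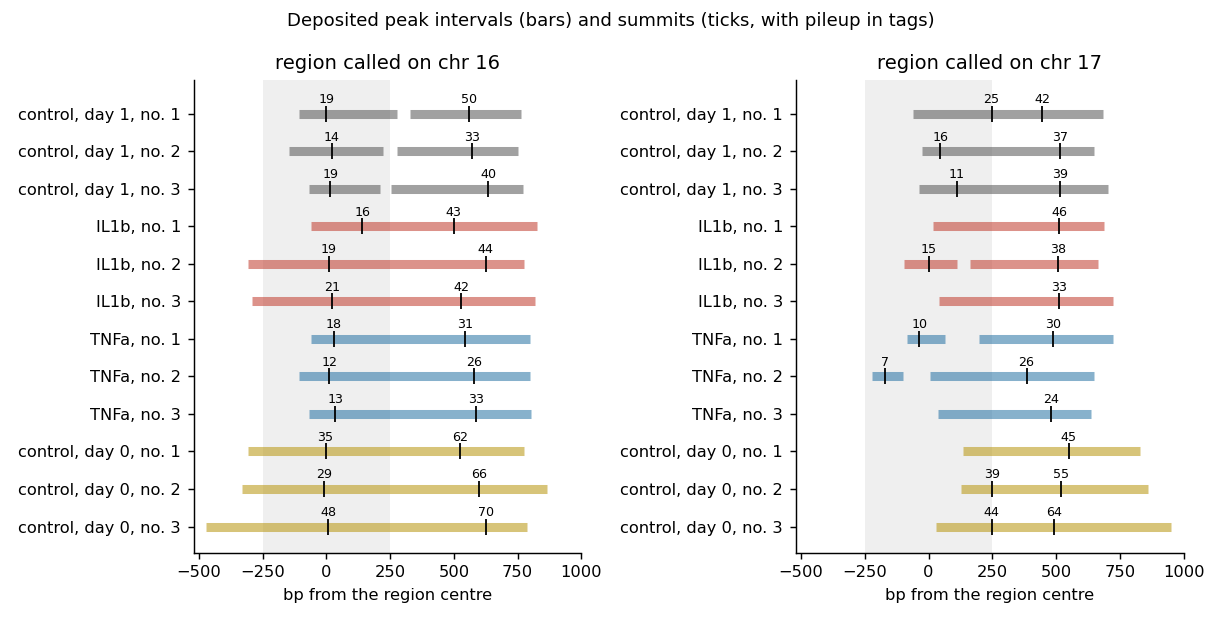
Deposited peak intervals (bars) and summits (ticks with their pileup in tags) around the 2 regions called with IL1b in Eahy926, by bp from the region centre; the grey band is the region, and rows are libraries. On chr 16 the 3 day 1 controls have separate intervals where the IL1b libraries have 1; on chr 17 the interval starts differ around the centre.

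No locus of the pathway itself passed the test. A panel of 28 genes of IL1 and NF-kB signalling, adhesion, chemokines and endothelial identity was read at the region nearest each start. Of these, 26 had a tested region, 21 of them a promoter region. None was called. An unadjusted p under 0.05 was found for 1 (3.85%, against 4.2% of all regions), and groups did not overlap in 3 of the 26, beside 8.74% of all regions. The changes ran from -1.24 to 1.12 with a median of 0.11, 16 above and 10 below 0. In 18 of the 26, strong peaks were in all 6 libraries.

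For receptor and adaptor genes, the IL1RAP promoter stood at places 16559, 18048 and 9011 in controls and 9360, 11150 and 7783 with IL1b (change 0.58 ± 0.66). These groups overlapped. A region 1.19 kb from the start of MYD88 was among the strongest peaks, at 83, 100 and 772 in controls and 614, 239 and 415 with IL1b (-1.08 ± 1.29). The IRAK4 promoter, of the kinase that starts the cascade, was at 5844, 2273 and 3331 and then at 5453, 1175 and 1631 (0.69 ± 0.85). For TRAF6 the places were 12750, 12299 and 19777 in controls and 11629, 15708 and 1736 with IL1b (1.10 ± 0.67), so 1 IL1b library stood apart, and the value was -1.77 when 80% overlap was required.

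Among NF-kB subunits and feedback genes, RELA, the main transactivating subunit, had promoter places of 12014, 6809 and 11140 in controls and 40187, 42045 and 7073 with IL1b. The change was -1.24 ± 0.66 (unadjusted p = 0.0699), with 1 IL1b library among the controls. NFKBIA, the inhibitor that NF-kB itself induces, had 12508, 11950 and 11958 in controls and 13973, 26370 and 33613 with IL1b. Those groups did not overlap, and the promoter was lower by score in every IL1b library, by -0.93 ± 0.56 (unadjusted p = 0.104). The promoter of TNFAIP3, the ubiquitin-editing inhibitor A20, showed 12876, 18165 and 21205 against 17559, 19726 and 11021 with IL1b (0.13 ± 0.58). With TNFa the same promoter was at 8336, 2961 and 4814 (1.79 ± 0.58, adjusted p = 0.278).

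Cytokine and adhesion genes had no calls either. At the CXCL8 promoter, of the neutrophil chemokine interleukin 8, the places were 18840, 25152 and 12726 in controls and 14527, 8343 and 13364 with IL1b (0.63 ± 0.59). CSF2, the granulocyte-macrophage growth factor, had 14080, 23977 and 19552 in controls and 10268, 10586 and 5922 with IL1b. Here every IL1b library was nearer the top than every control, with a change of 1.12 ± 0.59 (unadjusted p = 0.0687). A region 1.06 kb from the start of the adhesion molecule ICAM1 had a peak in 1 of 3 controls, at 46307, and in 2 of 3 IL1b libraries, at 18631 and 22820 (0.81 ± 0.37, unadjusted p = 0.0345, adjusted p = 1.0).

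**Figure D3:**
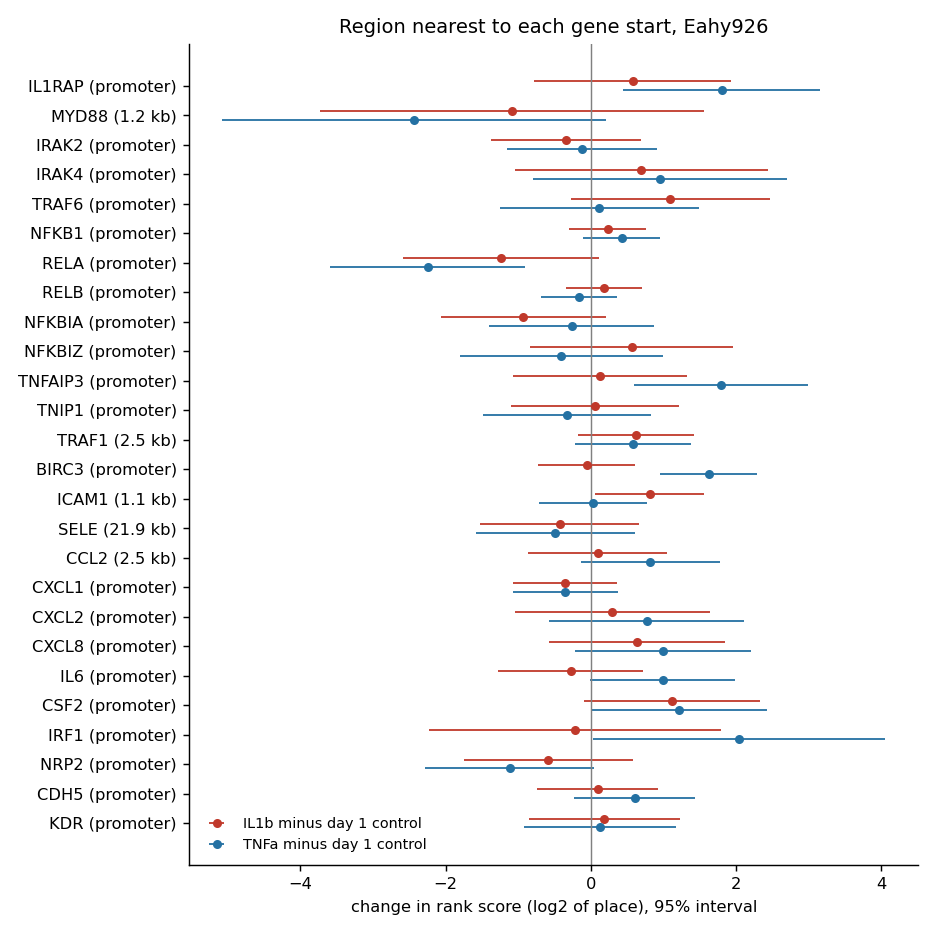
Change in rank score (log2) with its 95% interval at the region nearest to each of 26 gene starts in Eahy926, for IL1b and for TNFa against the same 3 day 1 controls; distances are given where no tested region lay within 1 kb. The IL1b values run from -1.24 to 1.12 and none was called; with TNFa, BIRC3 was called.

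Several of these promoters carry the kB sequence that NF-kB dimers bind. It was searched as GGNNNTTCC and its reverse complement GGAANNNCC, which can match the same bases, in the 250 bases before each start in RefSeq's promoter table (GRCh38.p14). It occurred in 17.1% of all 35116 promoters and in at least 1 promoter of 20.2% of 27305 genes. Of the 25 panel genes in the table, 14 had a match. The 5 shown are promoters described here with peaks in the Eahy926 libraries, and capitals mark the matches, 5′ to 3′ on the gene's strand. NFKBIA is at chr14:35404750-35404999 (minus strand), TNFAIP3 at chr6:137867009-137867258 (plus), BIRC3 at chr11:102317234-102317483 (plus), CXCL8 at chr4:73740319-73740568 (plus) and CSF2 at chr5:132073539-132073788 (plus). A match describes the letters only.
NFKBIA: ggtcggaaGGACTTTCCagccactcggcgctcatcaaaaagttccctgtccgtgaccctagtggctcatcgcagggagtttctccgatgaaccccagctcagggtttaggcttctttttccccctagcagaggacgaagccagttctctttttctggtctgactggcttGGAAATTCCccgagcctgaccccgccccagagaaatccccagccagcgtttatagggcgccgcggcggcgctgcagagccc
TNFAIP3: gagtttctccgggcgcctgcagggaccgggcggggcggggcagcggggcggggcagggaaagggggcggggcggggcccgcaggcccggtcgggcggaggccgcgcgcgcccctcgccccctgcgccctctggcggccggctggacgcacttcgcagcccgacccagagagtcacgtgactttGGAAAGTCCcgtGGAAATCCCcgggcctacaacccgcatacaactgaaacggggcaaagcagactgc
BIRC3: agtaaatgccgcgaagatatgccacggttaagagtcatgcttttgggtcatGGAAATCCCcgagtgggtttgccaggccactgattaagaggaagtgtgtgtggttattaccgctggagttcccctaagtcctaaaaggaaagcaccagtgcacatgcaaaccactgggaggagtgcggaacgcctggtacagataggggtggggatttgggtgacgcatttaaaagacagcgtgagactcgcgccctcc
CXCL8: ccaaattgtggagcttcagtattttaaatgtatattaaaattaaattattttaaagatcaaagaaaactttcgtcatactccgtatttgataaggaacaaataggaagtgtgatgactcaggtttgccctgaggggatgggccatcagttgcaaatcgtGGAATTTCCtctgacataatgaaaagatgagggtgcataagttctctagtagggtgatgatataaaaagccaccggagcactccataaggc
CSF2: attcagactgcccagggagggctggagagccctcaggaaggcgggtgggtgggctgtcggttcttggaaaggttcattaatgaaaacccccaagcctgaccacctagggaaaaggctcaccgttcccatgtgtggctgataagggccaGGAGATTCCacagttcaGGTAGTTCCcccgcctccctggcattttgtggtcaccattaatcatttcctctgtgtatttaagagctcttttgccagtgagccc

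NFKBIA has matches that begin 242 and 81 bases before its start, and TNFAIP3 has them at 67 and 55. CSF2 has them at 102 and 85, CXCL8 at 91 and BIRC3 at 199. The matched letters differ between promoters, and none of these 5 promoters was called with IL1b.

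Whole gene lists had no calls. No region within 50 kb of a gene of any of the 11 lists was called. Unadjusted p-values under 0.05 were found for 2 higher and 1 lower of 74 regions near IL1 receptor pathway genes (4.05%, median change -0.01), against 4.2% and a median of 0.0 over all regions. Near 21 genes of NF-kB signalling and feedback they were 6 higher and 5 lower of 132 regions (8.33%, median 0.04), with groups that did not overlap in 8 higher and 7 lower (11.4%, against 8.74% of all regions). Chemokine and cytokine genes had 2 higher and 0 lower of 88 (2.27%), leukocyte adhesion genes 2 and 1 of 44 (6.82%), interferon response genes 2 and 3 of 92 (5.43%), and AP-1 and immediate early genes 2 and 1 of 135 (2.22%). Endothelial identity genes had 6 and 2 of 104 (7.69%), epithelial genes 0 and 2 of 64 (3.12%), mesenchymal genes 2 and 0 of 44 (4.55%), blood cell genes 1 and 1 of 34 (5.88%) and housekeeping genes 0 of 50. With TNFa, 6 of the 861 regions tested near any listed gene were called higher (0.697%, against 0.252% of all regions), 2 of them near chemokine and cytokine genes. Promoters did not open or close as a whole: no listed gene of the 7 response and identity lists had a promoter peak in 3 of 3 IL1b libraries and 0 of 3 controls, or the reverse.

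The regions with the largest changes near listed genes, among those with unadjusted p under 0.05 and no overlap, all had an adjusted p of 1.0. On the higher side they included a region 49.0 kb from CCL20, a lymphocyte chemokine, with no peak, 40779 and no peak in controls and 10092, 17833 and 26532 with IL1b (1.47 ± 0.44, unadjusted p = 0.00218). All 3 IL1b libraries had a peak there and 1 control did. The promoter of ROBO4, an endothelial guidance receptor, went from 15025, 27621 and 16431 to 2791, 12178 and 6802 (1.63 ± 0.73). A region 14.7 kb from STAT2 had no peak in the 3 controls and stood at 25882, 26392 and 16444 with IL1b (1.15 ± 0.42). Another 4 lay near IRF2, TEK, TAB2 and ZC3H12A, with changes from 1.21 to 1.80.

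On the lower side the largest was a region 27.7 kb from IRF9, a subunit of the interferon-stimulated transcription factor, at 3550, 691 and 970 in controls and 5667, 5733 and 4920 with IL1b (-2.02 ± 0.84, unadjusted p = 0.0218). A region 9.41 kb from NFKB2, the gene of the p100 precursor, went from 9428, 23273 and 30775 to 43154, 35103 and 36806 (-1.02 ± 0.48). At ZC3H12A, which encodes an RNase that degrades cytokine messages, the promoter had a change of -0.78 ± 0.32 and a region 2.65 kb away 1.21 ± 0.50. The other 5, near HBEGF, NLRC5, SOD2, CLDN4 and TNFAIP2, had changes from -0.96 to -0.52.

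Regions called in the other comparisons were then read with IL1b in Eahy926, as a description. The 143 regions called higher with TNFa had a median TNFa change of 2.06. Their median with IL1b was 0.0 (quartiles -0.0017 and 0.13), and 1 was called, the chr16 region described above. Both values rest on the same 3 controls, and the set was chosen on the TNFa libraries. In 79 of the 143 no IL1b library had a peak. Regions could pass the filter through the TNFa libraries alone, and no peak scores 0. A median of 0.0 with IL1b is thus in part fixed by the choice and is no test of a response. Matched by summit the set had 59 regions, of which 0 were called with IL1b.

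The 8 regions called lower with TNFa did not follow that pattern. Their median change was -3.43 with TNFa and -2.67 with IL1b, 0 of the 8 had a change above 0 with IL1b, 6 had an unadjusted p under 0.05, and 1 was called, the chr17 region. Both medians again rest on the same 3 controls, and matched by summit no region was called lower with TNFa.

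The 6 regions near listed genes that TNFa called higher had these values with IL1b. Around IRAK2, a region 34.4 kb from the start was at 39701 in 1 control, at 44116 and 34932 in 2 IL1b libraries, and at 1671, 711 and 5638 with TNFa. Its change was 0.12 ± 0.58 with IL1b and 4.61 ± 0.58 with TNFa (adjusted p = 0.000486). The promoter of BIRC3, an inhibitor of apoptosis in the TNF receptor complex, had a peak in 1 of 3 controls (38435) and 1 of 3 IL1b libraries (43012), and stood at 11225, 15644 and 18637 with TNFa. The changes were -0.05 ± 0.33 with IL1b and 1.62 ± 0.33 with TNFa (adjusted p = 0.0206). At the promoter of OAS2, an antiviral synthetase, controls were at 28917, 31124 and 27516, IL1b libraries at 25779, 40718 and 32547 and TNFa libraries at 7914, 5200 and 1507. IL32, a proinflammatory cytokine, and a region 3.98 kb from EGR1 had no peak in any of the 6 control and IL1b libraries, and peaks in 3 of 3 with TNFa. For a region 21.2 kb from CSF2 the IL1b change was 0.64 ± 0.51 and the TNFa change 2.30 ± 0.51 (adjusted p = 0.0431).

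The 187 regions called higher with IL1b in TeloHAEC rest on other libraries. Only 80 of them could be tested in Eahy926, since a region needed a strong peak in 3 of the 12 day 1 libraries. Of the other 107, 104 had no strong peak in any of the 6 control and IL1b libraries of Eahy926. Over the 80, the median IL1b change in Eahy926 was 0.0 (quartiles -0.17 and 0.10), 2 had an unadjusted p under 0.05 on the higher side and 1 on the lower, and 0 were called. In 134 of the 187 no IL1b library of Eahy926 had a peak, which scores 0. Regions could pass the filter through the TNFa or VEGF libraries of Eahy926. A median of 0.0 here is thus in part fixed by that floor and is no test of a response.

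A region 20.2 kb from the feedback gene NFKBIA was called with IL1b in TeloHAEC. There it went from places 12482, 16118 and 9184 to 149, 1223 and 1014 with IL1b (4.43, adjusted p = 0.0342). In Eahy926 it was open to a like degree without treatment, at 10157, 9171 and 8280, and stood at 13979, 5130 and 14672 with IL1b (-0.15 ± 0.71). The groups did not overlap in TeloHAEC and did in Eahy926. The difference of the responses was -4.58 (adjusted p = 0.101), so it was not shown to differ between the lines.

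Both comparisons called 13 regions higher, TNFa in Eahy926 and IL1b in TeloHAEC, and these share no library. With IL1b in Eahy926 their changes ran from -0.15 to 0.30 with a median of 0.0, none had an unadjusted p under 0.05, and the intervals spanned -1.20 to 1.81. Against that, the TNFa changes ran from 1.06 to 4.47 and the TeloHAEC changes from 1.04 to 5.90. Of the 13, 8 had no peak in any control or IL1b library of Eahy926, and all 13 had one in 3 of 3 TNFa libraries. The members were picked for high values with TNFa and in TeloHAEC, and those 8 entered the test only through the TNFa libraries, so the distance from these groups is no test. Matched by summit, 4 of the 13 were called in both. This set was formed after its values were seen.

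Individual members of the set differed in where they started. At chr5:76126875-76127375 (hg19) the controls had 40194, no peak and 41106, the IL1b libraries 40551 and no peak in the other 2, and the TNFa libraries 3700, 8891 and 11127. In TeloHAEC it had no peak in 3 controls and 906, 1481 and 2667 with IL1b. The changes were -0.10 ± 0.47 with IL1b in Eahy926, 2.60 with TNFa and 5.02 with IL1b in TeloHAEC, and the difference between the lines was -5.12 (adjusted p = 0.000511). A region 30.2 kb from NRP2, a co-receptor for semaphorins and VEGF, had a peak in 1 of 3 controls (33998) and 1 of 3 IL1b libraries (46905), and 5240, 15885 and 14179 with TNFa. By contrast chr2:151537874-151538374 was already open, at 8922, 7186 and 11265 in controls and 11295, 6746 and 5035 with IL1b, and was at 219, 1091 and 280 with TNFa.

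**Figure D4:**
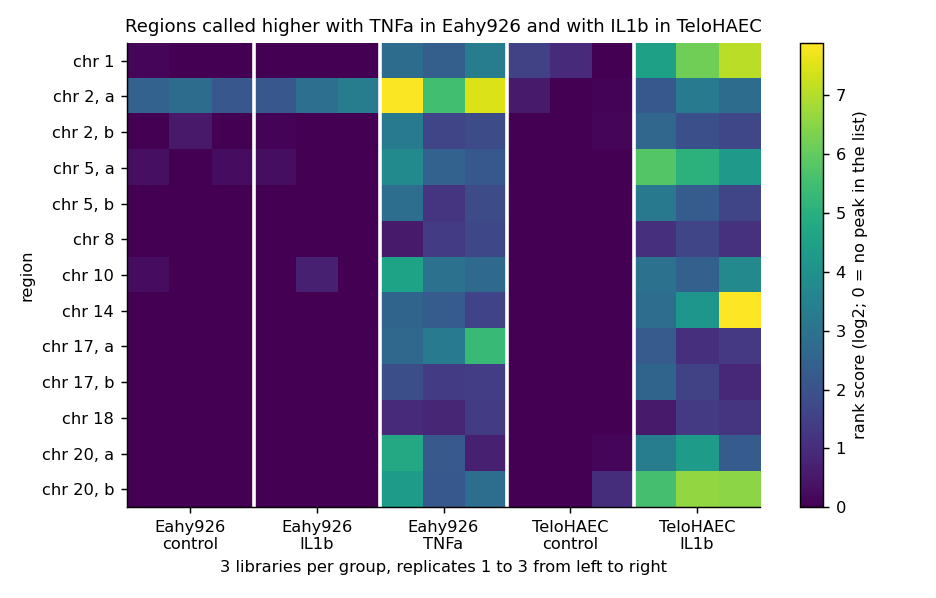
Rank score (log2, colour; 0 is no peak in the list) of the 13 regions called higher both with TNFa in Eahy926 and with IL1b in TeloHAEC; rows are regions named by chromosome, columns are 3 libraries of each of 5 groups. In the IL1b columns of Eahy926 9 of the 13 rows are at 0 in all 3 libraries, and the changes from its controls run from -0.15 to 0.30.

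Around the receptor gene, 4 regions were lower in Eahy926 than in TeloHAEC before any treatment. Distances here are from 1 listed hg19 start, while RefSeq's promoter table holds 4 starts of IL1R1 spread over 38.1 kb (GRCh38.p14), so a region before the listed start can lie at another promoter or within the gene. Neither IL1R1 nor the adhesion molecule VCAM1 had a tested region within 50 kb of its listed start in Eahy926, and no control or IL1b library had a peak in that window. Within 100 kb of the listed IL1R1 start, a window chosen after values were seen, TeloHAEC controls had a peak in 3 of 3 libraries at 7 of 12 regions and Eahy926 controls at 2. Between the control groups 4 of 9 tested regions were lower in Eahy926 and 0 higher, where 16.2% of all regions differed between the lines, 12537 of 77247 (5700 higher, 6837 lower). Among the 4, the regions at -90.2 and -89.5 kb are close neighbours, so the 4 may not be independent.

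The strongest of the 4, chr2:102680607-102681107 (hg19), at -89.5 kb from the listed start, had no peak, 12431 and 9761 in Eahy926 controls and 4527, 3778 and 1524 in TeloHAEC controls. The change was -2.62 ± 0.85 (adjusted p = 0.0335; 0.0484 by summit), and these day 1 groups did not overlap. The day 0 controls stood at 15784, 43008 and 28574 in Eahy926 and at 5140, 16996 and 2524 in TeloHAEC, and these groups overlapped. With IL1b in Eahy926 the region stood at 13961, 15789 and 19492, a change of 0.16 (unadjusted p = 0.777). On the other side of the gene, at 73.9 kb, a stronger peak stood at 1153, 306 and 659 in Eahy926 controls and 508, 144 and 646 with IL1b (0.77 ± 1.23). A region at 87.0 kb had 13026, 21208 and 14178 in controls and 28456, 35664 and no peak with IL1b (-1.23 ± 0.54, unadjusted p = 0.03, adjusted p = 1.0). At chr2:102720708-102721208, 49.4 kb before the listed start, no Eahy926 control or IL1b library had a peak, while TeloHAEC controls were at 16060, 16829 and 28350 (-1.34 ± 0.38, adjusted p = 0.015; 0.0343 by summit). Matched by summit, 3 of the 4 were still called, and the region at -90.2 kb had an adjusted p of 0.074. Nearer VCAM1, a region 10.8 kb before the start had peaks in 3 of 3 TeloHAEC controls and in none of the 6 Eahy926 libraries (-0.77 ± 0.15, adjusted p = 0.000734). The lines also differ in medium, VEGF and tissue of origin, and these cannot be told apart from the line.

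**Figure D5:**
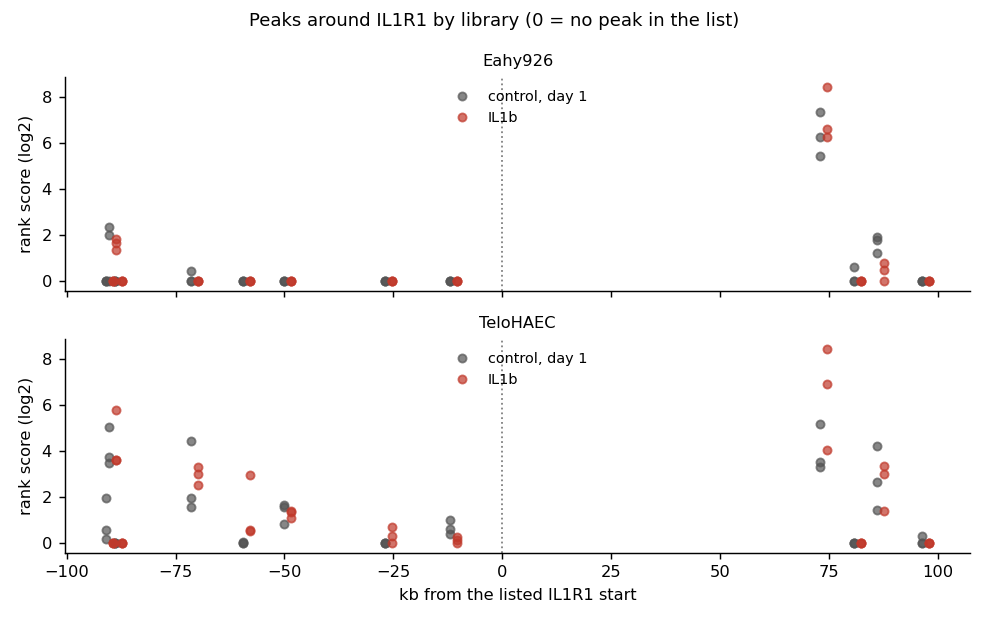
Rank score (log2; 0 is no peak in the list) of each region within 100 kb of the listed IL1R1 start, by kb from that start, with 1 point per library (3 controls in grey, 3 IL1b libraries in red) for Eahy926 above and TeloHAEC below. Between 75 kb and 10 kb before the start, points above 0 are nearly all in TeloHAEC.

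Of the 26 panel regions, 4 differed between the control groups (15.4%, near the 16.2% of all regions), 3 of them higher in Eahy926. MYD88 was higher in Eahy926 at the region 1.19 kb from its start (5.19 ± 1.19, adjusted p = 0.00344), with TeloHAEC controls at 4032, 16523 and 4712. The day 0 controls stood at 27, 236 and 53 in Eahy926 and at 527, 412 and 230 in TeloHAEC, and these groups overlapped. The NFKBIA promoter (1.55, adjusted p = 0.0186) and the IRF1 promoter (2.47, adjusted p = 0.0436) were also higher in Eahy926, and the CXCL8 promoter was lower (-2.89, adjusted p = 0.0184). Near IL1 receptor pathway genes as a list, 6 of 101 regions were lower and 5 higher in Eahy926 controls (10.9%, against the same 16.2%).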

How the data were processed

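The 30 libraries were profiled by ATAC-seq, with 1 deposited peak list each. The authors' lists come from Bowtie2 alignment to hg19 (per the submitters' processing notes) and MACS 2.1.1.20160309 with summits called, no control and a p threshold of 0.001, per the file headers. Reads were treated as single-end with 1 tag kept per position, and no shift for the transposase is recorded there. The deposited values are a pileup (signal) per summit, a fold enrichment, and −log10 p and −log10 q, and no counts per region were used here. Depth limits each list: the 6 libraries kept 5445823 to 7889404 tags.

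Regions (107672 of 501 bp) were centred on the summits of the 45000 strongest autosomal peaks of each list. A peak counted where it covered 50% of the shorter of peak and region. Rank scores were tested with limma 3.58.1 (R 4.3.3, moderated variance with trend) over regions with a strong peak in 3 libraries of the fit. The 12 day 1 libraries of a line (control, IL1b, TNFa and VEGF groups) shared 1 spread, and both lines together gave the line comparisons. Python 3.11.15 and pandas 2.3.3 did the rest. The limma step was tested on simulated data. Starts of 153 genes on hg19 were written from general knowledge. All 153 fell on the same chromosome as in RefSeq's table. Strong peaks were found within 1 kb for 55.0% of these starts, and for 7.6% after moving them by 20 kb. PECAM1 was not placed.

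Named regions were the panel, the 8 largest changes each way near listed genes (unadjusted p under 0.05, no overlap), every called region, and regions near listed genes called with TNFa or in TeloHAEC; 1 of them is not reported here. Regions and lists were chosen with earlier results of these data known. Alternatives changed list length, order, overlap, matching, filter, q threshold, scale, measure, groups, controls, replicate block and libraries.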

Additional observations from a re-analysis of the deposited data

Results flagged for a closer look

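Among the 13 regions called both with TNFa in Eahy926 and with IL1b in TeloHAEC and the 2 called with IL1b in Eahy926, 5 are given here whose IL1b change differed between Eahy926 and TeloHAEC by the test of the difference (limma, all 24 day 1 libraries), out of 199 that this test called. The regions were picked for high or low values in these same libraries, so the differences are in part fixed by that choice. At chr1:165451370-165451870 the difference, Eahy926 minus TeloHAEC, was -5.11 (adjusted p = 0.00304), with -0.04 in Eahy926 and 5.07 in TeloHAEC. At chr5:76126875-76127375 it was -5.12 (adjusted p = 0.000511). At chr14:70151908-70152408 it was -4.95 (adjusted p = 0.0248) and at chr20:61076868-61077368 it was -5.90 (adjusted p = 0.00517), where both Eahy926 changes were 0.0 and no control or IL1b library of Eahy926 had a peak. Matched by summit these 4 differences were -5.15, -5.03, -4.92 and -5.93, with adjusted p from 0.000598 to 0.0469.

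The chr16:30537942-30538442 region differed the other way, by 6.47 (adjusted p = 0.0102), with 5.48 in Eahy926 and -0.99 in TeloHAEC. Matched by summit the difference was -0.34 (adjusted p = 0.991).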

How the results depend on the processing

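Replicate numbers did not pair the libraries: same-numbered Eahy926 libraries had a median correlation of deviations of -0.0028, and 0 of 18 pairs exceeded 0.1. With the replicate block IL1b in Eahy926 had 2 calls, and the block moved no count by over 1.5 times. The 2 calls became 0 without the filter, ordered by fold enrichment, with 80% overlap and matched by summit (2292 regions with unadjusted p under 0.05 there), 1 with 1 bp overlap, normal scores or depth-scaled pileup, and 5 with only its own groups. TNFa gave 45 without the filter, 23 with only its groups, 394 with day 0 controls added, 32 with lists of 30000 peaks, 59 by fold enrichment, 31 at 80% overlap, 59 by summit, 99 at the stricter q, 5 with normal scores and 78 with pileup. IL1b against TNFa gave 55 without the filter, 60 with only its groups, 391 with day 0 controls, 36 with 30000 peaks, 69 by fold enrichment, 39 at 80% overlap, 89 by summit, 6 with normal scores and 82 with pileup. IL1b in TeloHAEC gave 129 without the filter, 26 with only its groups, 593 with day 0 controls, 3 with 30000 peaks, 318 by fold enrichment, 91 at 80% overlap, 90 by summit, 0 with normal scores (limma) and 2 with pileup. The difference of responses gave 327 without the filter, 5 with only its groups, 630 with day 0 controls, 113 with 30000 peaks, 386 by fold enrichment, 548 with normal scores and 351 with pileup. The control comparison gave 5647 with 30000 peaks, 19199 with normal scores and 19629 with pileup. The cause of these shifts was not tested. Leaving out 1 library gave 3 to 7 calls for IL1b in Eahy926 (4 without IL1b 2, and 6, 7 and 5 without controls 1, 2 and 3), 38 to 106 for TNFa (beyond 1.5 times for every library except TNFa 2), 26 to 112 for IL1b against TNFa (every library), 10 to 222 for IL1b in TeloHAEC (25, 10 and 10 without controls 1, 2 and 3), 92 to 375 for the difference (every library except the 3 TeloHAEC controls) and 9145 to 9783 for the controls. Of 898 alternative values at 51 named regions, 885 stayed on the same side of the threshold, with the same sign or with 1 of the values within 1 standard error of 0, 10 lost a call (all at the 2 called regions), and 3 reversed. These were TRAF6 at 80% overlap (-1.77) and the chr17 region at 1 bp (0.34) and 80% overlap (0.21). With 30000 peaks the Jaccard excess for IL1b in Eahy926 was -0.00015 (exact permutation p = 0.6), and 220 and 237 regions gained and lost a peak by that cut.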

Other observations

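Over the 19 settings run for IL1b in Eahy926, 21 regions were called at least once. The chr16 and chr17 regions were called in 14 and 12 settings. One more, chr2:136289314-136289814, was called in 2, and the other 18 in 1 each. None of the 21 lay within 50 kb of a listed gene, and all 21 had an adjusted p of 1.0 when matched by summit, with changes from -0.60 to 0.37.

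The 50 regions with the largest changes by interval had a median absolute change of 3.28 with IL1b in Eahy926, and of 0.65 for the same regions matched by summit. With TNFa the medians were 3.68 and 3.39, and with IL1b in TeloHAEC 4.04 and 3.96.

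In the class of regions with a mean place within the first 5000, 174 of 3721 (4.68%) had an unadjusted p under 0.05 with IL1b in Eahy926, and in the class from 20000 to 30000 it was 301 of 9634 (3.12%).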
